A study of Mus musculus with 10 samples.

Results

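The matrix proteases, their inhibitors and the enzymes that modify or crosslink collagen were followed by gene symbol. The set takes every listed gene whose mouse symbol begins with Mmp or Timp and a digit, with Adamts, with Loxl, Plod or P4ha and a digit, or is *Lox*, *Plau*, *Plat* or *Plaur*. Of the 21792 genes in the deposited tables, 60 fit this rule. The annotation holds 65 such genes, and the 5 others (*Mmp1a*, *Mmp1b*, *Mmp21*, *Adamts18* and *Adamts19*) were not analysed here.

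RNA of the kidney cortex was sequenced from 10 wild-type male C57BL/6 mice that were 8 weeks old when the model was started. In the aristolochic acid nephropathy (AAN) group, 6 mice received 1 intraperitoneal injection of aristolochic acid, a plant toxin that injures the proximal tubule, at 5 mg/kg in PBS, and in the sham group 4 mice received PBS alone. Tissue was taken at day 28, each mouse gave its own library, and the labels name each mouse by a tag (B607, B634, B636 and H249 in sham, A483, B614, B630, B639, B642 and B666 in AAN) and give no batch. The question of the comparison was how gene expression in the cortex differed between AAN and sham mice.

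The matrix metalloproteinases (MMPs) are zinc enzymes that are made as inactive precursors and cleave collagens, elastin, proteoglycans and many cell surface proteins, and the tissue inhibitors of metalloproteinases (TIMPs) bind their active sites. The ADAMTS enzymes are a related secreted family that trims procollagens, proteoglycans and fibrillin-associated proteins, while urokinase and tissue plasminogen activator turn plasminogen into plasmin, a broad protease. Prolyl 4-hydroxylases and lysyl hydroxylases modify collagen chains inside the cell, and lysyl oxidases crosslink collagen and elastin outside it, so that together these genes cover the making, hardening and breakdown of the scar that forms in a fibrotic kidney.

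Values are FPKM, fragments scaled to the length of the gene and to the size of the library, which can be compared between genes. A gene was tested where its mean over the 10 mice was at least 0.1 FPKM, and it was called higher or lower in AAN where the limma adjusted p was at most 0.05 and the change was at least 2-fold. Fold changes are differences of log2(FPKM + 0.1), which understates the change of low genes. The recovered depth was 15.9 to 17.4 M fragments in sham mice and 13.4 to 16.5 M in AAN mice, and AAN mice had more genes above 0 (19158 to 19636 against 16690 to 17639). The 20 most abundant genes held 31.8% to 62.7% of the summed FPKM of AAN mice and 50.8% to 75.6% of that of sham mice, and the median log2 fold change of all 17129 genes tested was 0.75. Changes are therefore also given relative to that median, or after rescaling by the median of ratios, which brought it to 0.065. In the cortex of sham mice the 8 proximal tubule markers summed to 2266 to 4413 FPKM, against 726 to 2259 FPKM in AAN mice, where 5 of them were lower and none was higher. Macrophage markers (10 of 10 higher, 38.6 to 61.9 FPKM in sham mice and 629 to 2185 FPKM in AAN mice) and fibroblast markers (8 of 8 higher, 16.2 to 22.3 and 116 to 264 FPKM) moved with the groups. By the same limits 35.8% of all genes tested were higher and 3.43% lower. In whole cortex, fewer cells of a type and less RNA per cell cannot be told apart, and the part of cell makeup in the results that follow was not tested.

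In AAN mice 36 of the 50 members tested were increased and 2 (*Timp3* and *Adamts15*) were decreased, with 12 not past both limits. That was 72% of the members tested higher and 4.00% lower, where the same limits called 35.8% of all genes higher and 3.43% lower. After the median of ratios 29 members were higher and 3 lower, against 19.0% and 10.5% of all genes, and after quantile normalization 26 were higher and 5 lower, against 14.8% and 11.8%. Of all genes called, 91.2% were higher as deposited, 64.4% after the median of ratios and 55.6% after quantile normalization. The median log2 fold change of the members tested was 2.06, against 0.75 over all genes, and 40 members lay above that median. By the adjusted p alone, 43 of the 50 passed in either direction, where 61.4% of all genes did. All 6 AAN mice exceeded all 4 sham mice in 39 of the 50 members tested, where 40.3% of all genes tested did so. Of the 50, 12 had a sham mean under 0.1 FPKM and entered the test through their AAN values alone. Their AAN mean therefore had to exceed their sham mean. These were *Adamts12*, *Adamts3*, *Adamts4*, *Adamts8*, *Adamtsl1*, *Mmp19*, *Mmp25*, *Mmp27*, *Mmp3*, *Mmp7*, *Mmp8* and *Timp1*. All but *Adamts3* are among the 36 called higher, and all are among the 39 without overlap. Their calls and p-values are no separate support for an increase. The remaining 10 members (*Adamts13*, *Adamts17*, *Adamts20*, *Adamtsl3*, *Mmp10*, *Mmp16*, *Mmp20*, *Mmp24*, *P4ha3* and *Timp4*) had means under 0.1 FPKM and were not tested.

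**Figure D1:**
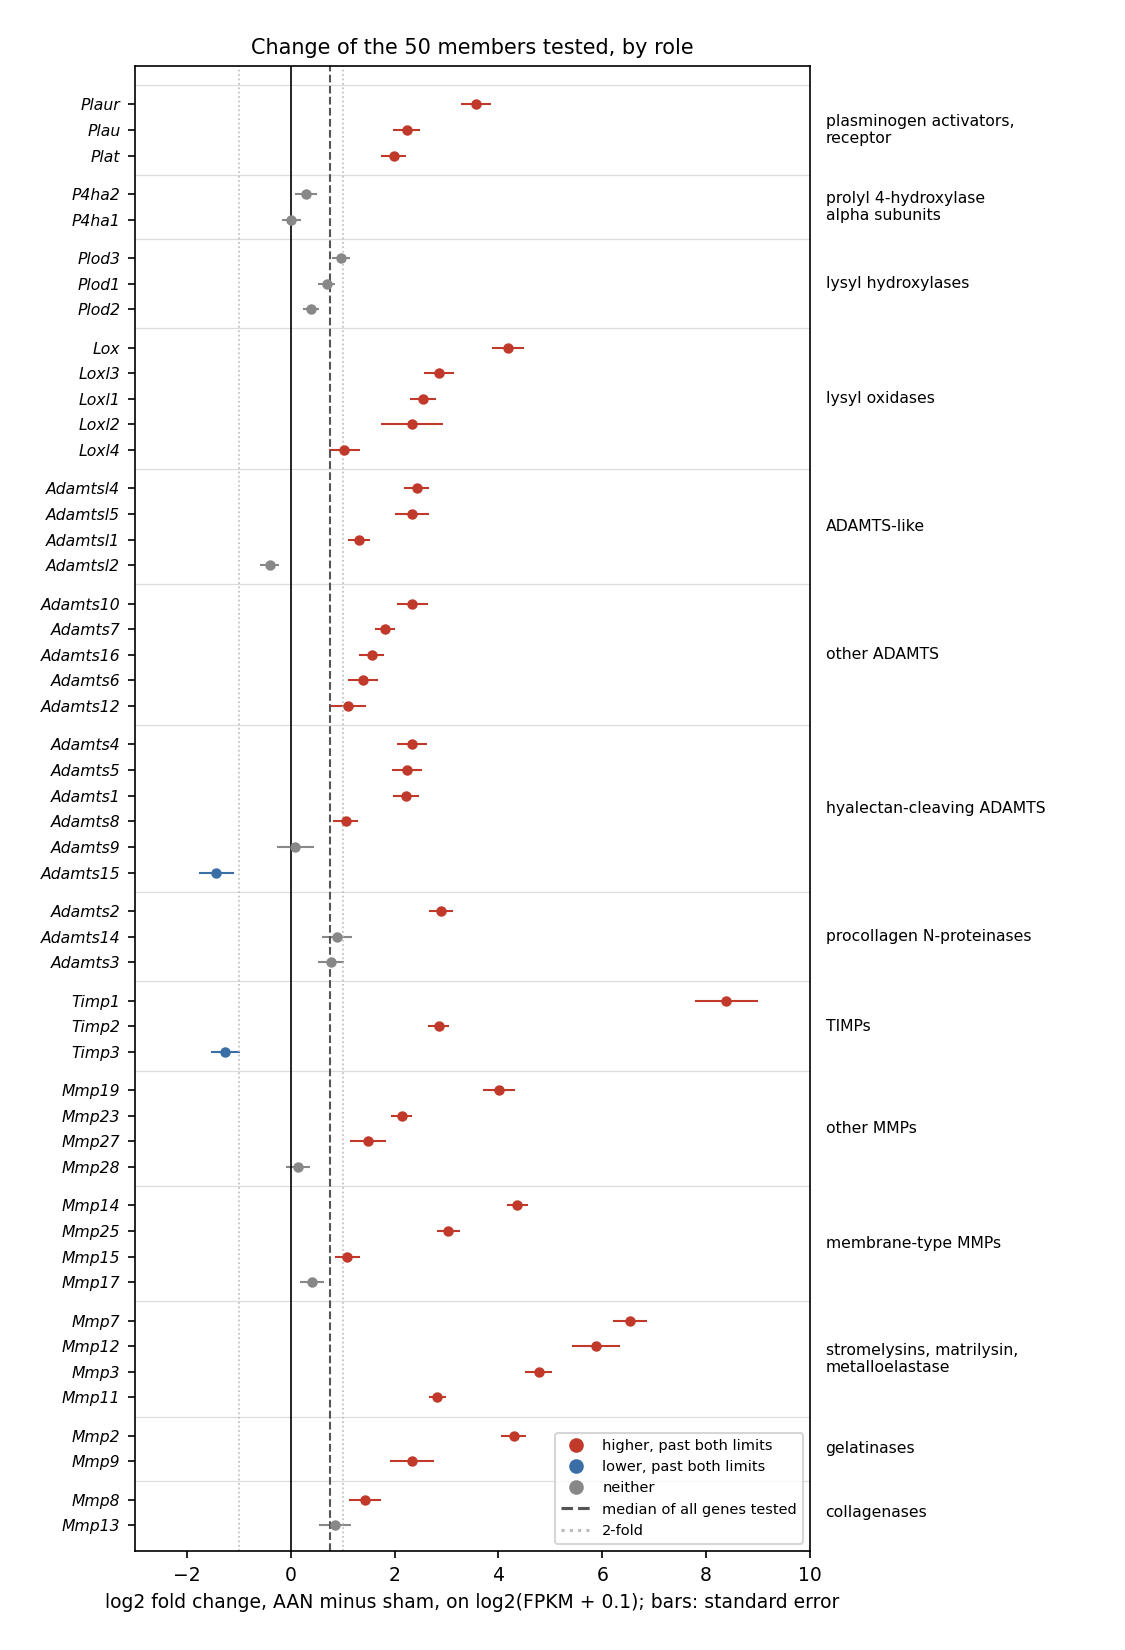
The log2 fold change (AAN minus sham, on log2(FPKM + 0.1)) of each of the 50 members tested is plotted by role, with bars for the standard error, a dashed line at the median of all genes (0.75) and dotted lines at 2-fold. *Timp1* is farthest to the right at 8.39, *Timp3* and *Adamts15* are the points below the lower dotted line, and the lysyl and prolyl hydroxylases lie between 0.01 and 0.97.

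Among AAN mice, B614 held the lowest value of the 6 in 19 of the 36 members called higher, and B666 the highest in 14. After the median of ratios these counts were 19 and 11. Without B614, 36 members were higher and 2 lower, as with it. Of the members tested, *Timp3* and *Plod2*, whose groups do not overlap without B614, are given with and without that mouse where they are described.

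The promoters of a group of MMP genes are shown before the values because 8 members lie in 1 cluster on chromosome 9 and differed widely in level. The cluster spans 427 kb (GRCm38 chromosome 9, 7272514 to 7699585), with all 8 genes on the plus strand in the order *Mmp13*, *Mmp12*, *Mmp3*, *Mmp10*, *Mmp8*, *Mmp27*, *Mmp20* and *Mmp7*. The sequences below are the 100 bases before the transcription start that RefSeq gives on GRCm38.p6, which can differ from the gene start of the annotation used for the values. Capitals mark the letters TGANTCA (N is any base), the motif that AP-1 transcription factors bind, searched on both strands in the 250 bases before each start. By their letters the 3 motifs searched cannot overlap. The windows are chr9:7272414-7272513 for *Mmp13*, chr9:7347274-7347373 for *Mmp12* (the second of its 2 starts, since the first window holds no such letters), chr9:7445722-7445821 for *Mmp3*, chr9:7502242-7502341 for *Mmp10*, chr9:7558329-7558428 for *Mmp8*, chr9:7571296-7571395 for *Mmp27*, chr9:7628131-7628230 for *Mmp20*, and chr9:7691990-7692089 for *Mmp7* (the first of 2 starts), all on the plus strand. *Plaur* is shown for comparison from chr7:24462383-24462482, also on the plus strand. Of the 39 members with a RefSeq promoter sequence at hand, it was the only one outside the cluster with the motif. Members without such a sequence were not searched.
Mmp13: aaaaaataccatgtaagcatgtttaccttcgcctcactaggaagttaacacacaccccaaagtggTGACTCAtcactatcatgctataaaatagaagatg
Mmp12: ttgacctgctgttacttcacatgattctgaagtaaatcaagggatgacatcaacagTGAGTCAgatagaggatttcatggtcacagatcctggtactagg
Mmp3: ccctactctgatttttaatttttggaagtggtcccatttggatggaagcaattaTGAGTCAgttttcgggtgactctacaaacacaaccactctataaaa
Mmp10: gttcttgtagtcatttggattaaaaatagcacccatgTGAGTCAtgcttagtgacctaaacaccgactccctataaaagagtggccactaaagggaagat
Mmp8: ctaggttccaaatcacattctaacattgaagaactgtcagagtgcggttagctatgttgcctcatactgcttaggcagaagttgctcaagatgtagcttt
Mmp27: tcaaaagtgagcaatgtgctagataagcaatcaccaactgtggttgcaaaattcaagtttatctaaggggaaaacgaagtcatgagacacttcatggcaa
Mmp20: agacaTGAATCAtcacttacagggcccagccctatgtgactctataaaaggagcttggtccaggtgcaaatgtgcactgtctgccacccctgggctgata
Mmp7: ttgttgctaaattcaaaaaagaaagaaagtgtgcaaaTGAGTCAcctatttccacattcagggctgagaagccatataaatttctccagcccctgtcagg
Plaur: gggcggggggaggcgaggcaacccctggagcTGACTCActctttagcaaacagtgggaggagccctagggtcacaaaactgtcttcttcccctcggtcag

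The motif was found in 6 of the 8 cluster genes and starts 35 bases before the start in *Mmp13*, 44 in *Mmp12*, 46 in *Mmp3*, 63 in *Mmp10* and in *Mmp7*, and 95 in *Mmp20*. *Mmp12* is counted only through its second start, which lies inside the annotated gene (7344381 to 7369499). *Mmp8* and *Mmp27* have none of these letters in the window. The promoter table matched 39 of the 60 members with 42 windows, 7 of which (16.7%) held the motif, against 6.75% of all 32851 windows in the table and 5.30% of the 18194 windows of genes listed in the deposited tables. Among members called higher, 4 of 22 windows (18.2%) held it, and among the others 3 of 20 (15.0%). The TATA box motif with the letters TATAAA stood in a window of 5 of the 8 cluster genes. That count is by gene, while by window 12.4% of all windows held it and 7.94% of those of listed genes. The GC box motif with the letters GGGCGG stood in none of the 10 cluster windows, against 32.7% of all windows and 49.6% of those of listed genes. These are matches of letters only.

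Within the cluster, *Mmp12*, *Mmp3* and *Mmp7* were raised to several FPKM in AAN, *Mmp13* was present in both groups, and the other 4 reached at most 0.409 FPKM in any mouse. The summed level of the 8 genes was 0.557 to 1.47 FPKM in sham mice and 12.4 to 43.2 FPKM in AAN mice. Its share of the summed FPKM of all 20 listed MMP genes was 9.0% to 18.5% in sham mice, against 21.0% to 43.4% in AAN mice.

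*Mmp7* encodes matrilysin, a small MMP that epithelial cells make. It was at 0, 0, 0 and 0.0568 FPKM in the 4 sham mice and, in AAN mice, at 5.01 to 17 (median 10.8). The 1 sham value above 0 corresponds to a single fragment, whereas the AAN libraries held 84 to 288 fragments. The log2 fold change was 6.53 ± 0.33 (SE, limma adjusted p = 1.26e-07), or 5.79 above the median of all genes. Its size depends on the pseudocount, from 3.48 with 1 to 9.32 with 0.01. *Mmp7* entered the test through its AAN values alone, so its p-value is no separate support for an increase.

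*Mmp12*, the macrophage metalloelastase, was at 0.126, 0.0380, 0.134 and 0.158 FPKM in sham mice and at 3.65 to 23.7 (median 13.1) in AAN mice. The lowest AAN mouse (B614) stood 23.0-fold above the highest sham mouse, and the log2 fold change was 5.87 ± 0.46 (SE, limma adjusted p = 8.58e-07). *Mmp3*, stromelysin 1, was at 0.0318, 0, 0 and 0.101 FPKM in sham mice and at 2.57 to 5.11 (median 3.46) in AAN mice, with a log2 fold change of 4.77 ± 0.26 (SE, limma adjusted p = 1.47e-07). For both genes the groups were far apart, and the increase remained after the median of ratios (5.33 and 4.4). The p-value of *Mmp3* is no separate support, since that gene too entered the test through its AAN values alone.

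*Mmp13*, collagenase 3, had the highest sham level of the cluster (0.854, 0.519, 0.590 and 1.16 FPKM) and was at 0.844 to 2.23 (median 1.52) in AAN mice. The groups overlapped, and the log2 fold change of 0.85 ± 0.32 (SE, limma adjusted p = 0.0343) missed the 2-fold limit and stood 0.10 above the median of all genes. *Mmp8*, the neutrophil collagenase, was listed at 0 in all 4 sham mice and at 0.0750 to 0.335 (median 0.156) FPKM in AAN mice, which is 3 to 12 fragments, and *Mmp27* was likewise listed at 0 in all sham mice and at 0.0388 to 0.409 (median 0.180). Both passed the limits (limma adjusted p = 0.00193 and 0.00258), but no fold is given against a group at 0. They entered the test through their AAN values alone, so that only an increase could be called, and these p-values are no separate support for it. *Mmp20* and *Mmp10* were listed at 0 in all sham mice and reached 0.0187 to 0.148 and 0 to 0.174 FPKM in AAN mice, which is 1 to 8 and 0 to 4 fragments, and were under the filter. The summed neutrophil markers were 0.341 to 2.51 FPKM in sham mice against 2.86 to 16.5 in AAN mice. Of the 8 listed, 6 were tested and 4 were higher (2 after the median of ratios), where 35.8% of all genes were (19.0%). *Ltf* and *Retnlg* did not pass both limits. *Ly6g* was listed at 0 in all sham mice and in all AAN mice but A483 (0.143 FPKM) and B642 (0.0993 FPKM). *Ngp* averaged 0.0497 FPKM in sham mice and 0.0305 in AAN mice, and neither of these was tested. The part of the neutrophil markers in the *Mmp8* values was not tested.

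**Figure D2:**
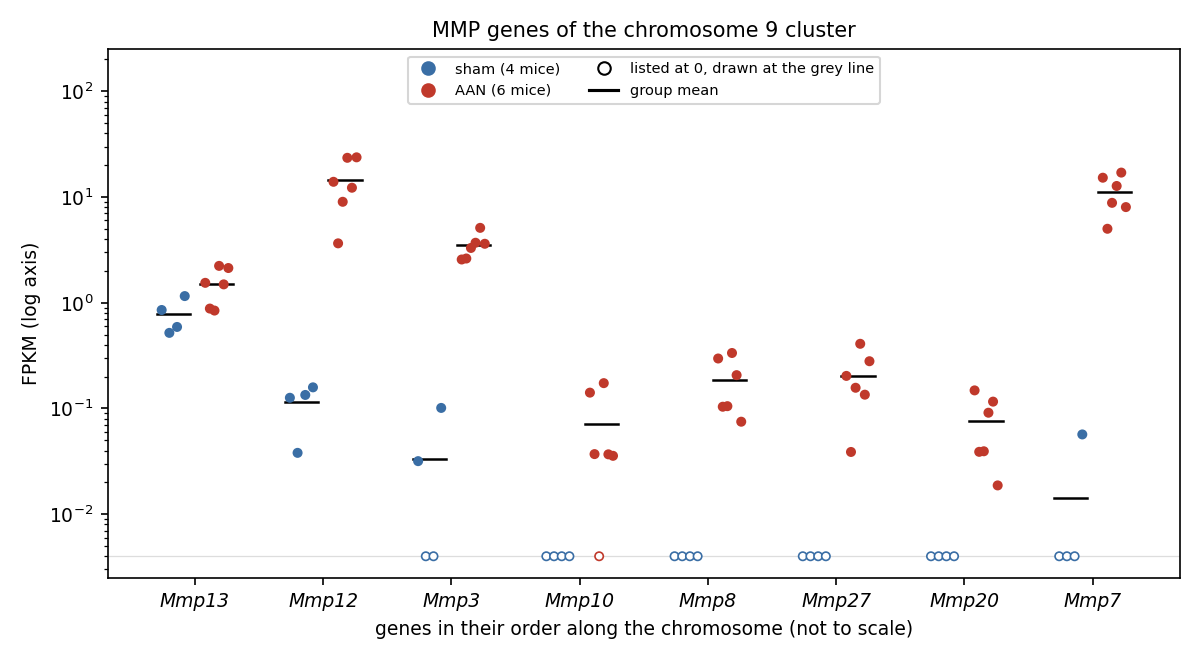
FPKM of the 8 MMP genes of the chromosome 9 cluster in each mouse (4 sham in blue, 6 AAN in red) on a log axis, in their order along the chromosome, with black lines for group means and open points for values listed at 0. All AAN points of *Mmp12*, *Mmp3* and *Mmp7* lie at 2.57 FPKM or above and all sham points at 0.158 or below, while *Mmp8*, *Mmp27* and *Mmp20* reach at most 0.409 FPKM in AAN mice.

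Outside the cluster, the gelatinase *Mmp2* and the membrane-type *Mmp14* were the most abundant MMPs of AAN mice by their means (21.4 ± 7.40 and 22.0 ± 5.67 FPKM, SD, n = 6). *Mmp14* encodes MT1-MMP, a cell surface collagenase that also activates the precursor of MMP-2, and lies on chromosome 14, 54431612 to 54445364, plus strand. It was at 1.04, 1.06, 0.768 and 0.925 FPKM in sham mice and at 14.7 to 31.4 (median 21.6) in AAN mice, with a log2 fold change of 4.37 ± 0.20 (SE, limma adjusted p = 1.01e-07). *Mmp2* (chromosome 8, 92827291 to 92853420, plus strand), gelatinase A, which cleaves type IV and denatured collagen, was at 0.771, 0.997, 1.06 and 0.978 FPKM in sham mice and at 14.3 to 32.3 (median 18.8) in AAN mice, a log2 fold change of 4.29 ± 0.24 (SE, limma adjusted p = 1.56e-07). The lowest AAN mouse was 13.8-fold above the highest sham mouse in *Mmp14* and 13.5-fold in *Mmp2*. The summed level of the 20 MMP genes was 6.19 to 7.96 FPKM in sham mice, and 58.9 to 125 FPKM in AAN mice, where *Mmp12* and *Mmp7* came next by their means.

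*Mmp9*, gelatinase B, which leukocytes release, was at 0.101, 0.192, 0.139 and 0.477 FPKM in sham mice, the highest of them H249, and at 0.572 to 2.53 (median 1.79) in AAN mice. The groups did not overlap, and the log2 fold change was 2.34 ± 0.42 (SE, limma adjusted p = 5.38e-04). After quantile normalization it was 1.10 and no longer passed (limma adjusted p = 0.0540). Within each mouse, log2 *Mmp2* exceeded log2 *Mmp9* by 1.80 ± 0.62 in sham mice (SD, n = 4) and by 3.75 ± 0.47 in AAN mice (SD, n = 6), a difference of 1.95 ± 0.36 (SE). The exact two-sided permutation test gave p = 0.00476 for it, the smallest that 4 against 6 mice allow, and 0.00794 adjusted over 10 pairs of members compared in this way.

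Among the other membrane-type MMPs, *Mmp15* (MT2-MMP) was at 1.58, 0.697, 0.768 and 1.19 FPKM in sham mice and at 1.72 to 3.03 (median 2.29) in AAN mice, with a log2 fold change of 1.09 ± 0.24 (SE, limma adjusted p = 0.00224). It stood only 0.34 above the median of all genes and was past the limits neither after the median of ratios (0.38) nor without sham mouse B634 (0.93) or B636 (0.97). The difference of *Mmp14* and *Mmp15* within a mouse was −0.09 ± 0.48 in sham mice and 3.19 ± 0.38 in AAN mice (SD), a shift of 3.28 ± 0.28 (SE, exact permutation p = 0.00476, adjusted 0.00794), so that the 2 paralogs were at like levels in sham mice and far apart in AAN mice. *Mmp25*, a lipid-anchored MMP known from leukocytes, went from 0.0339, 0, 0.0540 and 0.0360 FPKM to 0.784 to 1.28 (median 0.967), with a log2 fold change of 3.03 ± 0.22 (SE, limma adjusted p = 4.77e-07). This p-value is no separate support for an increase, since the gene entered the test through its AAN values alone. *Mmp17*, another lipid-anchored MMP, had overlapping groups (0.282 to 0.550 and 0.445 to 0.828 FPKM), and its log2 fold change of 0.41 was −0.23 after the median of ratios. *Mmp24* was listed at 0 in 3 sham mice and was at 0.0521 to 0.332 FPKM in AAN mice, where 13.6% of its exonic bases are shared with a gene on the other strand, and *Mmp16* stayed under 0.05 FPKM.

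*Mmp11* (stromelysin 3), *Mmp19* and *Mmp23* completed the MMPs that rose. *Mmp11* was at 0.481, 0.422, 0.557 and 0.556 FPKM in sham mice and at 3.34 to 4.93 (median 4.22) in AAN mice, a log2 fold change of 2.82 ± 0.17 (SE, limma adjusted p = 1.78e-07). *Mmp19*, which is expressed by many cell types, was at 0.0670, 0.0555, 0.0712 and 0.0889 and at 1.16 to 3.99 (median 3.06), a log2 fold change of 4.01 ± 0.31 (SE, limma adjusted p = 7.85e-07). For *Mmp19*, which entered the test through its AAN values alone, the p-value is no separate support. *Mmp23* was at 1.09, 1.38, 1.67 and 1.35 and at 3.89 to 7.71 (median 6.80), a log2 fold change of 2.13 ± 0.21 (SE, limma adjusted p = 4.14e-06), with mouse B614 below the other AAN mice and still above all sham mice. *Mmp19* shares 22.3% of its exonic bases with *Tmem198b* and *Mmp11* 5.58% with *Chchd10*, both on the opposite strand. Without stated strand use such reads cannot be told apart. *Mmp28* had overlapping groups and a log2 fold change of 0.15, which was −0.46 after the median of ratios.

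The make-up of the inhibitors changed. In sham mice *Timp3* held 96.6% to 97.8% of the summed TIMP level and *Timp1* at most 0.204%, whereas in AAN mice *Timp3* held 35.7% to 76.8%, *Timp1* 5.22% to 40.9% and *Timp2* 18% to 25.7%, up from 2.22% to 3.44%. The summed FPKM of the 4 genes overlapped between the groups (149 to 281 in sham mice against 138 to 220 in AAN mice).

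*Timp1* (chromosome X, 20870166 to 20874735, plus strand) encodes a secreted inhibitor of most MMPs and had the largest log2 fold change of all members. It was at 0, 0, 0.351 and 0 FPKM in the 4 sham mice, where a value of 0 still allows 0.195 to 0.214 FPKM (3 fragments), and at 10.2 to 86.0 (median 62.4) in AAN mice. Mouse B614 was the lowest AAN mouse and 5 of the 6 were above 50 FPKM. The log2 fold change was 8.39 ± 0.60 (SE, limma adjusted p = 5.19e-07). Since 3 sham values were 0 its size depends on the pseudocount, from 5.54 with 1 to 10.96 with 0.01, and it was 8.84 without B614. *Timp1* entered the test through its AAN values alone, so its p-value is no separate support for an increase. The gene lies inside *Syn1* on the opposite strand, with no shared exonic base.

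*Timp2* (chromosome 11, 118301069 to 118355740, minus strand) encodes the inhibitor that joins MT1-MMP in the activation of MMP-2. It was at 6.24, 5.12, 4.79 and 6.05 FPKM in sham mice and at 29.1 to 55.8 (median 40.1) in AAN mice, with a log2 fold change of 2.85 ± 0.19 (SE, limma adjusted p = 3.60e-07), and the lowest AAN mouse was 4.66-fold above the highest sham mouse. *Mmp2* rose more than *Timp2*. The log2 difference of the enzyme and this inhibitor was −2.43 ± 0.34 in sham mice and −0.98 ± 0.18 in AAN mice (SD), a shift of 1.45 ± 0.19 (SE, exact permutation p = 0.00476, adjusted 0.00794). *Timp2* remained above *Mmp2* in all 10 mice.

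*Timp3* (chromosome 10, 86300372 to 86349506, plus strand) encodes an inhibitor that is held in the matrix and also acts on ADAM and ADAMTS enzymes. It was at 274, 144, 167 and 184 FPKM in sham mice and at 52.7 to 150.4 (median 74.6) in AAN mice. B614, at 150.4 FPKM, was above the lowest sham mouse, and the other 5 AAN mice (52.7 to 78.7 FPKM) were below all sham mice. The log2 fold change was −1.26 ± 0.28 (SE, limma adjusted p = 0.00210), and −1.45 without B614. After the median of ratios it was −2.03. The gene overlaps *Syn3* on the other strand, which shares 21.3% of its exonic bases and was itself at means of 0.404 FPKM in sham mice and 0.161 in AAN mice.

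The differences between these inhibitors were also taken within each mouse. Log2 *Timp1* minus log2 *Timp3* moved from −10.32 ± 1.25 in sham mice to −0.67 ± 1.58 in AAN mice (SD), by 9.65 ± 0.90 (SE), and log2 *Timp1* minus log2 *Timp2* from −5.27 ± 1.23 to 0.28 ± 1.03, by 5.54 ± 0.74 (both exact permutation p = 0.00476, adjusted 0.00794). Since *Timp1* was listed at 0 in 3 sham mice, the sham means and spreads and the size of both shifts depend on the pseudocount of 0.1. The *Timp1* values above left hardly any other outcome, and the pairs were chosen with earlier results of these data known. Both p-values are therefore no separate support for a change in balance. In AAN mouse B614 *Timp1* was still below both others. *Timp4* was at 0.0195 FPKM or less in every mouse and was not tested.

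**Figure D3:**
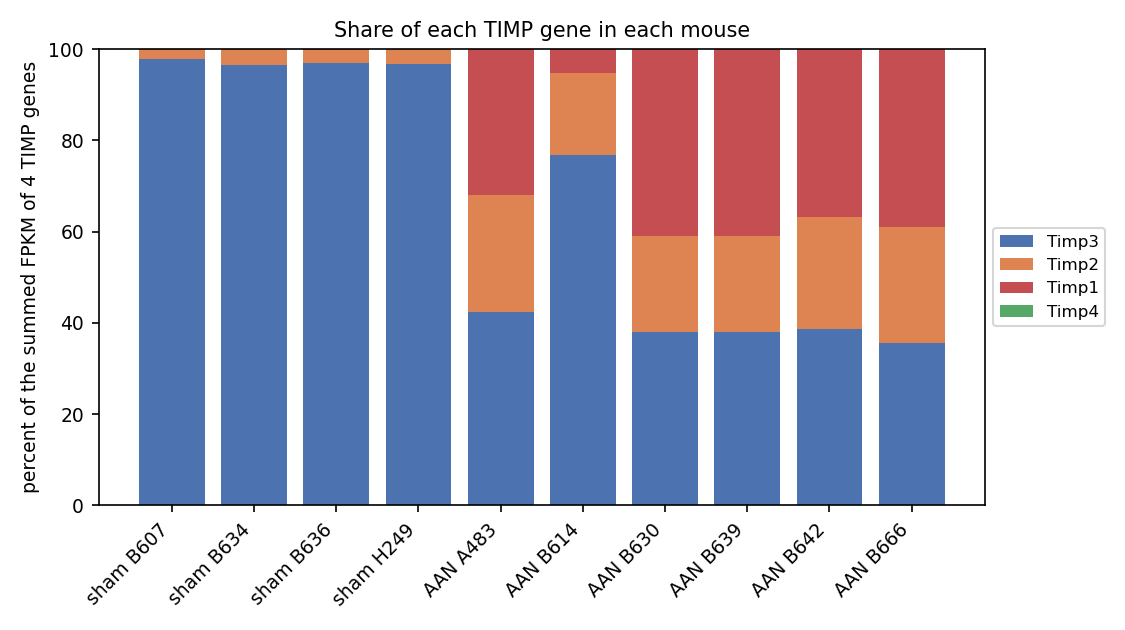
Bars show, for each of the 10 mice, the percent of the summed FPKM of the 4 TIMP genes that each gene takes. *Timp3* fills 96.6% to 97.8% of every sham bar, while in AAN mice *Timp1* takes 31.9% to 40.9% in all but B614, where it takes 5.22%.

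The plasminogen activators had the highest mean FPKM of the proteases among the 60 members in both groups. All 3 genes of this system were increased, where 35.8% of all genes tested were. *Plau* (chromosome 14, 20836660 to 20843385, plus strand), urokinase, which the kidney tubule secretes, was at 70.5, 42.1, 50.7 and 94.4 FPKM in sham mice and at 205 to 394 (median 296) in AAN mice, a log2 fold change of 2.23 ± 0.26 (SE, limma adjusted p = 2.16e-05). *Plat*, tissue plasminogen activator, was at 17.8, 23.6, 21.7 and 30.6 and at 55.9 to 128 (median 90.0), a log2 fold change of 1.98 ± 0.25 (SE, limma adjusted p = 3.16e-05). In both genes the lowest AAN mouse was above the highest sham mouse. The log2 difference of *Plau* and *Plat* within a mouse was 1.41 ± 0.50 in sham mice and 1.67 ± 0.45 in AAN mice, and its shift of 0.25 ± 0.31 (SE) was within the spread between mice (exact permutation p = 0.433, adjusted 0.481). *Plaur*, the cell surface receptor of urokinase, was low in sham mice (0.308, 0.352, 0.479 and 0.455 FPKM) and at 3.20 to 8.08 (median 7.0) in AAN mice, a log2 fold change of 3.56 ± 0.29 (SE, limma adjusted p = 1.16e-06).

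Of 11 partners of the plasmin system, 10 were listed and 7 were tested, of which 6 were higher and 1 lower (5 and 1 after the median of ratios). Over all genes 35.8% were higher and 3.43% lower (19.0% and 10.5% after the median of ratios). The median log2 fold change of the list was 2.45, against 0.75 over all genes. *Anxa2*, a chain of a cell surface plasminogen receptor, had a log2 fold change of 3.41 ± 0.27 (SE, limma adjusted p = 1.06e-06), and *Serpine2*, an inhibitor of urokinase, one of 3.26 ± 0.28 (SE, limma adjusted p = 1.71e-06). *Serpinf2*, the plasmin inhibitor alpha-2-antiplasmin, was the 1 that fell, from 105, 54.9, 69.6 and 86.4 FPKM to 11.4 to 26.8 FPKM, with a log2 fold change of −2.46 ± 0.26 (SE, limma adjusted p = 9.94e-06). *Plg*, plasminogen itself, which the liver makes, averaged 0.0437 FPKM in sham mice and 0.00452 in AAN mice and was under the filter.

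**Figure D4:**
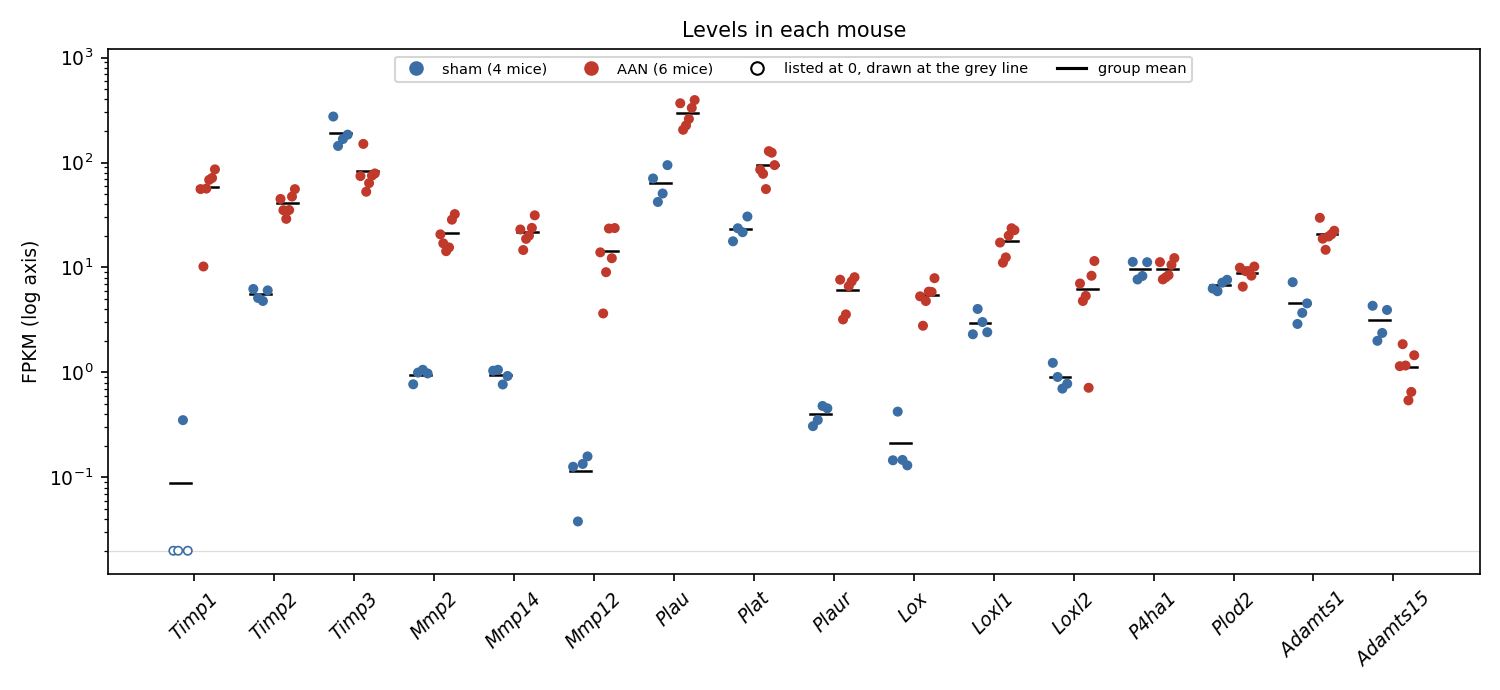
FPKM of selected members in each mouse (sham in blue, AAN in red) on a log axis, with black lines for group means and open points for values listed at 0. *Timp1*, *Mmp2*, *Mmp14* and *Mmp12* have no overlap between the groups, *Timp3* and *Adamts15* are lower in AAN, and *P4ha1* ranges from 7.68 to 11.3 in sham mice and from 7.70 to 12.3 in AAN mice.

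All 5 lysyl oxidases were called higher in AAN, where 35.8% of all genes tested were. The change was 1.03 to 4.18 on the log2 scale, though *Loxl4* passed only narrowly. *Lox*, the founding member, which crosslinks fibrillar collagen and elastin, was at 0.146, 0.423, 0.147 and 0.130 FPKM in sham mice, with B634 above the other 3, and at 2.78 to 7.91 (median 5.57) in AAN mice. The lowest AAN mouse was 6.58-fold above the highest sham mouse, and the log2 fold change was 4.18 ± 0.31 (SE, limma adjusted p = 5.86e-07). *Loxl1*, which acts mainly on elastin, was the most abundant of the family by its mean in both groups. It went from 2.31, 4.03, 3.02 and 2.42 FPKM to 11.1 to 23.7 (median 18.7), a log2 fold change of 2.54 ± 0.25 (SE, limma adjusted p = 5.10e-06). *Lox* rose more than *Loxl1*, since their log2 difference moved from −3.35 ± 0.29 to −1.71 ± 0.25 (SD), by 1.64 ± 0.18 (SE, exact permutation p = 0.00476, adjusted 0.00794), but with a pseudocount of 1 the shift was 0.14 and no longer passed.

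*Loxl2*, which crosslinks basement membrane collagen, was at 1.23, 0.905, 0.701 and 0.780 FPKM in sham mice and at 0.714 to 11.5 (median 6.20) in AAN mice. The lowest AAN value, 0.714 FPKM, belonged to B639 and lay among the sham values, while the other 5 AAN mice had 4.79 to 11.5 FPKM. Its log2 fold change was 2.34 ± 0.59 (SE, limma adjusted p = 0.00504), and 2.86 without B639. After quantile normalization it was 1.32 and no longer passed. In B639 the other members of the family were not low (*Lox* at 5.89 and *Loxl1* at 20.1 FPKM). *Loxl3* was at 0.320, 0.445, 0.604 and 0.537 FPKM and at 1.83 to 5.81 (median 4.28), a log2 fold change of 2.85 ± 0.29 (SE, limma adjusted p = 6.99e-06). It shares 11.6% of its exonic bases with *Htra2* on the opposite strand. *Htra2* had means of 2.05 FPKM in sham mice and 5.61 in AAN mice, and reads of shared bases cannot be told apart without stated strand use. *Loxl4* was at 0.138, 0.177, 0.351 and 0.407 and at 0.442 to 0.998 (median 0.537). Its groups barely separated, and its log2 fold change of 1.03 ± 0.29 (SE, limma adjusted p = 0.00899) fell under the 2-fold limit without any one of B607, B634, B614 or B630, was 0.44 after the median of ratios and turned to −0.23 after quantile normalization.

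The enzymes that hydroxylate collagen inside the cell changed little in comparison, and none of the 5 tested passed both limits. *P4ha1*, the main catalytic subunit of prolyl 4-hydroxylase, was at 11.3, 7.68, 8.30 and 11.2 FPKM in sham mice and at 7.70 to 12.3 (median 9.52) in AAN mice. The groups covered the same range, and the log2 fold change was 0.01 ± 0.19 (SE), which was −0.74 relative to the median of all genes and −0.74 after the median of ratios. *P4ha2* was at 3.32, 2.77, 2.96 and 4.30 FPKM and at 3.03 to 5.48 (median 4.19), with a log2 fold change of 0.30 ± 0.21 that was −0.45 after the median of ratios. *P4ha3*, the rarest of these subunits, was at 0, 0.0278, 0 and 0.0401 FPKM and at 0 to 0.174 and was not tested alone. Its log2 difference from *P4ha1* within a mouse moved by 0.63 ± 0.29 (SE), which did not pass (exact permutation p = 0.0810, adjusted 0.101).

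*Plod1* and *Plod3* were higher in every AAN mouse than in any sham mouse but by less than 2-fold. *Plod1*, which hydroxylates lysines in the collagen helix, was at 6.32, 5.23, 5.47 and 6.87 and at 7.90 to 11.5 (median 9.70) FPKM, a log2 fold change of 0.69 ± 0.16 (SE, limma adjusted p = 0.00302), and was −0.06 after the median of ratios. *Plod3*, which also adds glucose to the hydroxylysines, was at 6.00, 4.48, 5.18 and 5.90 and at 7.79 to 13.8 (median 10.8) FPKM, a log2 fold change of 0.97 ± 0.18 (SE, limma adjusted p = 5.37e-04). It stood 0.23 above the median of all genes and passed 2-fold without B614 (1.06), B607 (1.03) or H249 (1.02). *Plod3* shares 11.7% of its exonic bases with *Znhit1* on the opposite strand, which had means of 13.9 FPKM in sham mice and 14.7 in AAN mice. *Plod2*, which hydroxylates the telopeptide lysines that lysyl oxidases use, was at 6.30, 5.94, 7.17 and 7.63 and at 6.57 to 10.2 (median 9.23) FPKM. Its groups overlapped through B614, which was below the highest sham mouse while the other 5 AAN mice were above it. The log2 fold change of 0.39 ± 0.16 (SE, limma adjusted p = 0.0521) was 0.47 without B614 (limma adjusted p = 0.00957), still under 2-fold, and −0.37 after the median of ratios with all mice. The log2 difference of *Plod2* and *Plod1* moved by −0.30 ± 0.13 (SE, exact permutation p = 0.0762, adjusted 0.101), which did not pass. Of 19 partners in collagen maturation, 18 were tested, and 7 were higher and none lower (5 and 0 after the median of ratios). Their share called higher was near that of all genes (35.8%, and 19.0% after the median of ratios), and their median log2 fold change was 0.72, against 0.75 over all genes. *Bmp1*, the procollagen C-proteinase, had a log2 fold change of 3.12 ± 0.23 (SE, limma adjusted p = 5.50e-07), *Fkbp10*, a collagen chaperone, one of 2.43 ± 0.21 (SE, limma adjusted p = 2.0e-06), and *Colgalt1*, which adds galactose to hydroxylysine, one of 2.16 ± 0.21 (SE, limma adjusted p = 4.35e-06). *P4hb*, the subunit that pairs with the P4HA chains, had one of −0.19 ± 0.19 (SE, limma adjusted p = 0.399) and passed no limit.

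**Figure D5:**
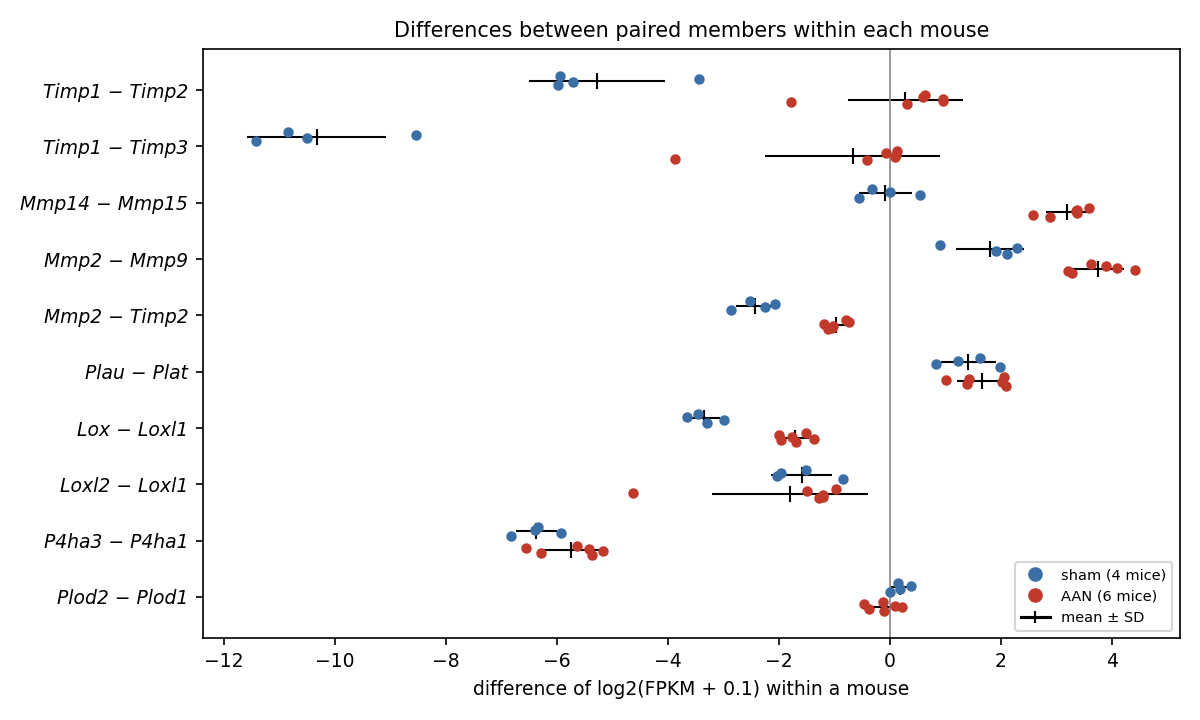
For 10 pairs of members, points show the difference of log2(FPKM + 0.1) of the 2 genes within each mouse (sham in blue, AAN in red), with means and SD as black bars. The groups are apart in the 6 pairs *Timp1* with *Timp2* or *Timp3*, *Mmp14* with *Mmp15*, *Mmp2* with *Mmp9* or *Timp2*, and *Lox* with *Loxl1*, and overlap in the other 4.

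Among the procollagen N-proteinases, which remove the amino propeptide of fibrillar procollagens, *Adamts2* was increased. It was at 0.207, 0.261, 0.258 and 0.264 FPKM in sham mice and at 1.86 to 3.59 (median 2.27) in AAN mice, a log2 fold change of 2.90 ± 0.23 (SE, limma adjusted p = 9.40e-07). *Adamts14* and *Adamts3* had non-overlapping groups but less than a 2-fold change (0.89 and 0.78 on the log2 scale, close to the median of all genes), at means of 0.294 ± 0.134 and 0.143 ± 0.0398 FPKM in AAN mice (SD, n = 6).

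Of the 7 ADAMTS enzymes that cleave versican and aggrecan, 6 were tested, and 4 were higher and 1 was lower. Over all genes tested 35.8% were higher and 3.43% lower. *Adamts1* (chromosome 16, 85793827 to 85803113, minus strand), the most abundant ADAMTS gene in both groups, was at 7.24, 2.90, 3.69 and 4.55 FPKM in sham mice and at 14.7 to 29.7 (median 20.2) in AAN mice, a log2 fold change of 2.22 ± 0.25 (SE, limma adjusted p = 1.66e-05). *Adamts5*, which lies nearby on chromosome 16 and encodes another aggrecanase, was at 0.783, 1.82, 1.37 and 1.02 and at 3.13 to 8.01 (median 6.91), a log2 fold change of 2.23 ± 0.29 (SE, limma adjusted p = 4.02e-05). In both genes the groups did not overlap. *Adamts4* rose from 0.178, 0.0614, 0.0237 and 0.0354 FPKM to 0.451 to 1.08 and *Adamts8* from 0.0423 to 0.0957 to 0.139 to 0.335 (log2 fold changes 2.34 and 1.06, limma adjusted p = 3.57e-05 and 0.00238). *Adamts8* no longer passed after the median of ratios (0.67). Both *Adamts4* and *Adamts8* entered the test through their AAN values alone, so their p-values are no separate support for an increase.

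*Adamts15* (chromosome 9, 30899155 to 30922452, minus strand) was the only member that was lower in every AAN mouse than in any sham mouse, where 3.25% of all genes tested were. It was at 4.32, 2.0, 2.38 and 3.94 FPKM in sham mice and at 0.541 to 1.86 (median 1.16) in AAN mice, and the log2 fold change was −1.43 ± 0.34 (SE, limma adjusted p = 0.00328), or −2.15 after the median of ratios. It held 20.1% to 29.4% of the summed FPKM of the 17 listed ADAMTS proteases in sham mice, against 1.23% to 5.21% in AAN mice. *Adamts8*, which lies nearby on the other strand (chromosome 9, 30942562 to 30963838), rose. *Adamts9* had overlapping groups (0.606 to 1.01 and 0.268 to 1.3 FPKM), with the lowest value in B639, and its log2 fold change of 0.09 was −0.60 after the median of ratios.

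The other ADAMTS genes that passed were *Adamts10*, which binds fibrillin microfibrils, *Adamts16*, *Adamts6*, *Adamts7* and *Adamts12*, with log2 fold changes of 1.11 to 2.34. *Adamts10* was at 0.633, 0.838, 1.28 and 1.47 FPKM in sham mice and at 2.98 to 7.68 (median 5.82) in AAN mice, a log2 fold change of 2.34 ± 0.29 (SE, limma adjusted p = 3.40e-05). *Adamts16* was at 0.575, 0.655, 0.837 and 0.544 and at 1.58 to 3.21 (median 1.99), and *Adamts6* at 0.711, 0.170, 0.416 and 0.566 and at 1.05 to 1.53 (median 1.23) (log2 fold changes 1.56 and 1.39, limma adjusted p = 1.50e-04 and 0.00128). *Adamts10* and *Adamts7* also passed after the median of ratios, and *Adamts16* (0.86), *Adamts6* (0.74) and *Adamts12* (0.82) did not. *Adamts13*, which cleaves von Willebrand factor, and *Adamts17* were listed at 0 in all sham mice and reached 0.0821 and 0.0711 FPKM at most in AAN mice.

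The ADAMTS-like genes encode secreted proteins without a protease domain that bind fibrillin microfibrils. Of the 4 tested 3 were higher, where 35.8% of all genes tested were. *Adamtsl4* was at 0.361, 0.699, 0.427 and 0.448 FPKM in sham mice and at 1.84 to 4.16 (median 3.0) in AAN mice, a log2 fold change of 2.42 ± 0.24 (SE, limma adjusted p = 5.62e-06). *Adamtsl5* was at 0.177, 0.102, 0.140 and 0.230 and at 0.520 to 1.94 (median 1.35), a log2 fold change of 2.33 ± 0.33 (SE, limma adjusted p = 9.37e-05). *Adamtsl1* was lower in level (0.0859 to 0.122 and 0.317 to 0.519 FPKM, log2 fold change 1.32) and did not pass after the median of ratios (0.82). *Adamtsl2* had overlapping groups (2.84, 4.03, 3.02 and 2.78 FPKM in sham mice against 1.72 to 2.93 in AAN mice) and a log2 fold change of −0.41 that did not pass as deposited, and passed as lower after the median of ratios (−1.15).

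Of 17 genes for other proteases, protease inhibitors and related proteins, 16 were tested, and 7 were higher and 2 lower (4 and 3 after the median of ratios). The median log2 fold change of the list was 0.78, against 0.75 over all genes, of which 35.8% were higher and 3.43% lower (19.0% and 10.5% after the median of ratios), so its share higher was near that of all genes. *Adam8*, a leukocyte sheddase, had a log2 fold change of 4.58 ± 0.28 (SE, limma adjusted p = 2.14e-07) and *Adam19* one of 4.08 ± 0.32 (SE, limma adjusted p = 9.57e-07). *Adam10*, a sheddase of many surface proteins, had one of 2.82 ± 0.68 (SE, limma adjusted p = 0.00362), with sham values spread from 0.575 to 9.32 FPKM. *Mep1a* and *Mep1b*, the meprins of the proximal tubule brush border, were lower (−1.38 ± 0.42 (SE, limma adjusted p = 0.0135) and −1.84 ± 0.54 (SE, limma adjusted p = 0.0108)), with overlapping groups. Of the 8 proximal tubule markers 5 were lower too, and their part in the meprin values was not tested.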

How the data were processed

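Members, gene lists, pairs and tests were chosen with earlier results of these data known, so no list is independent evidence. The 10 mice were grouped by the sample labels. The authors filtered paired-end reads, aligned them with Hisat2 2.0.4 (GRCm38.p4), and quantified known genes with Stringtie 1.3.0. The deposited values are these FPKM, 1 per gene and mouse, with no counts. The annotation release, strand use and the sharing of fragments between overlapping genes are not given in the sources used here. Symbols and positions came from GENCODE mouse release vM21 (GRCm38), which held 21650 of the 21792 genes.

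Depth was recovered from the steps between low FPKM values of genes with 1 annotated transcript, of which 95.1% to 97.0% were whole fragments within 0.05. A value of 0 allows up to 3 fragments, for counting error only.

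The authors' edgeR test needs counts, so limma 3.58.1 in R 4.3.3 (lmFit, eBayes with trend and robust) was run on log2(FPKM + 0.1) for the 17129 genes averaging 0.1 FPKM or more, two-sided, with Benjamini-Hochberg adjustment over all of them. The limits were an adjusted p of 0.05 and a 2-fold change. Differences of 2 members within a mouse were tested with exact two-sided permutation tests over the 210 splits of the mice (smallest p 0.00476). Beyond genotype and group the labels give only a tag for each mouse. The p-values judge the group difference against the spread between these animals.

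Members given in full were the TIMPs, lysyl oxidases, hydroxylases and plasminogen genes, *Mmp2*, *Mmp9*, *Mmp14* and *Mmp15*, and, per other role group, the 3 that rose most and the 2 that fell most past both limits at a mean of 1 FPKM or more, with those listed at 0 in all mice of a group and, in groups with none at 1 FPKM, those that passed. Others described were chosen after their values were seen. From each partner list the 3 largest increases and 2 largest decreases past both limits were named, except 1 gene of the plasmin system list, which is not reported here, and *P4hb* and *Plg* were added after their values were seen. *Serpina5*, *Tll2*, *Camp*, *Elane* and *Mpo* of the lists were not analysed here. Promoter sequences are from RefSeq on GRCm38.p6.

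Alternatives were a pseudocount of 1 or of 0.01, a filter at a mean of 1 FPKM or none, median of ratios, quantile normalization, limma without trend or robust, no fold limit, each mouse left out, and mice with B tags alone (3 sham and 5 AAN). The remaining steps ran in Python 3.11.15 (scipy 1.17.1, pandas 2.3.3, numpy 2.4.6, with figures by matplotlib 3.10.9). The tests were tested on simulated data.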

Additional observations from a re-analysis of the deposited data

Results flagged for a closer look

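In 80 groups of values (sham or AAN) of the members given in full, 7 held a mouse whose gap to the nearest of the others exceeded Dixon's 95% critical value. Chance gives about 1 in 20, or 4 of 80. That rate does not hold where all the others are at 0, as for *Timp1* and *Mmp7* in sham mice, since any value above 0 is then flagged. Mouse B614 was 2 of the 7. Its *Timp3*, at 150.4 FPKM, stood above the other AAN mice (52.7 to 78.7 FPKM), and its *Mmp23*, at 3.89 FPKM, stood below them (6.34 to 7.71 FPKM). Among sham mice, B634 had *Lox* at 0.423 FPKM against 0.130 to 0.147 in the other 3, B607 had *Adamts2* at 0.207 FPKM against 0.258 to 0.264, B636 had *Timp1* at 0.351 FPKM against 0, and H249 had *Mmp7* at 0.0568 FPKM, a single fragment, against 0. AAN mouse B630 had *Adamts17* at 0.0711 FPKM against 0.00687 to 0.0223 in the others.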

How the results depend on the processing

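Members called higher numbered 36, and 23 with a pseudocount of 1 and 34 to 39 with 1 mouse left out. Members called lower numbered 2, and 1 with a pseudocount of 1, 5 after quantile normalization and 2 in each fit without 1 mouse. Of all genes tested, 6126 were higher, and 4025 with a mean of at least 1 FPKM, 2909 with a pseudocount of 1, 3261 and 2537 after the median of ratios and quantile normalization, 9482 with no fold limit and 5488 to 6684 with 1 mouse left out. Those lower numbered 588, and 2025 after quantile normalization, 1801 after the median of ratios, 1027 with no fold limit and 524 to 703 with 1 mouse left out. The 2 scalings lower the median change of all genes by construction, and the cause of the other shifts was not tested.

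After the median of ratios the log2 fold changes of *P4ha1*, *P4ha2*, *Plod1* and *Plod2* turned to −0.74, −0.45, −0.062 and −0.37, and after quantile normalization those of *Loxl4*, *P4ha1*, *P4ha2* and *Plod2* to −0.23, −0.59, −0.55 and −0.27. With 1 mouse left out, *P4ha1* ranged from −0.088 to 0.096. None of these passed both limits in either direction, except *Loxl4* as deposited. The shift of *Lox* against *Loxl1* was 0.14 with a pseudocount of 1 (exact permutation p adjusted over 10 pairs = 0.449). That of *Loxl2* against *Loxl1* ranged from −0.37 to 0.36 with 1 mouse left out, 0.36 without B639, and that of *P4ha3* against *P4ha1* from 0.48 to 0.80, which passed only without B642. The other 5 pairs that had passed kept their direction and still passed in every alternative run. The count tests listed as alternatives were not run, since the values are FPKM. No paired analysis was possible because no mouse tag occurs in both groups. Precision is limited by 4 and 6 mice, and by 3 fragments for values of 0.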

Other observations

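Other cell types moved beside these genes in ways the comparison above does not describe. All 8 T cell markers were higher in AAN, with a summed level of 1.66 to 4.90 FPKM in sham mice and 95.4 to 288 FPKM in AAN mice, and 3 of the 5 B cell markers were tested and higher (0.673 to 1.28 and 3.82 to 9.53 FPKM). All 8 markers of injured tubule cells were higher (156 to 253 and 1458 to 3735 FPKM), and the 8 endothelial markers (34.2 to 57.8 and 53.9 to 75.4 FPKM) included none past both limits. Of the markers of smooth muscle, mesangium and pericytes 4 of 7 were higher, and 2 were higher and 1 lower after the median of ratios. Of the 5 podocyte markers 1 was higher, and of the 5 collecting duct markers none passed as deposited and 3 were lower after the median of ratios. After the median of ratios 9 of the 10 macrophage markers were higher and 7 of the 8 proximal tubule markers lower. Over all genes tested 35.8% were higher and 3.43% lower as deposited, and 19.0% and 10.5% after the median of ratios.

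Within the lysyl oxidase family the summed level was 4.15 to 5.98 FPKM in sham mice and 21.3 to 46.7 FPKM in AAN mice, and *Lox* rose from 3.04% to 7.08% of it to 13.1% to 17.8%. The summed level of the plasminogen activators *Plau* and *Plat* was 65.7 to 125 FPKM in sham mice and 281 to 488 FPKM in AAN mice, with *Plau* at 64.0% to 79.9% and 67.0% to 81.1% of it.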
